A study of Mus musculus with 4 samples.

Results

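The respiratory chain and ATP synthase genes were taken by symbol: every probe set whose single annotated gene begins with Nduf, Uqcr, Atp5, Cox4i, Cox5, Cox6, Cox7 or Cox8, or is Sdha, Sdhb, Sdhc, Sdhd or Cycs. The rule found 85 genes on 159 probe sets, of 12393 genes with a probe set of their own on the array. For each gene the brightest probe set by mean over the 4 arrays was used, and 83 of the 85 passed the filter on dim probe sets and were tested. Another 8 probe sets with several symbols, among them those for Ndufa11, Ndufb4 and Ndufs6, were left out by the rule. The source was total RNA from small intestine of 4 mice aged 1 month, with 1 array per mouse. Both null animals, a male and a female, carried HNF4 loxP over minus with villin-Cre. Of the control mice, the female was loxP over + with villin-Cre and the male was loxP over minus with no Cre, so that Cre and the minus allele were each present in 1 control. Values are given for the male and then the female null animal, and for the female and then the male control. Villin drives Cre in the gut epithelium, and muscle, stroma and immune cells in the same tissue keep the loxP allele. In the null mice and the male control those cells also carry the minus allele. HNF4 is a family of nuclear receptors, and the labels do not say whether Hnf4a or Hnf4g was targeted.

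The respiratory chain sits in the inner mitochondrial membrane. Complex I takes electrons from NADH and complex II from succinate, and ubiquinone carries them to complex III, cytochrome c to complex IV and complex IV to oxygen. Complexes I, III and IV pump protons, and ATP synthase, also called complex V, lets the protons back to make ATP. Most subunits are encoded in the nucleus, and the absorptive enterocyte, which moves nutrients against gradients, is rich in mitochondria.

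No subunit passed the test between null and control intestine. Of the 83 genes tested, 0 had an adjusted p under 0.05 in limma, where 2 of all 15838 probe sets (0.0126%) passed, 1 higher and 1 lower (0.00631% each). At an unadjusted p under 0.05 there was 1 gene, Ndufa3, which was higher, against 3.03% of all probe sets (1.31% higher and 1.72% lower), and with sex as a block there were 0 by adjusted p and 2 by unadjusted p, Ndufa3 and Ndufb5, against 0.183% and 5.08% of all probe sets. The measured differences were small: the median null minus control difference was 0.037 on the scale of log2(intensity + 16), against −0.012 over all probe sets tested. Of the 83 genes, 77 (92.8%) differed by less than 0.25, which is 1.19-fold, against 68.8% of all probe sets tested. Intervals show how far the arrays bound these values. For 82 of 83 genes the 95% interval lay within 1 on the log2 scale in either direction, a 2-fold change, and for 54 (65.1%) it lay within 0.5, which is 1.41-fold. The shares over all probe sets tested were 79.3% and 6.16%, and the median standard error was 0.143 for the members and 0.247 over all. The exception was the complex I assembly factor Ndufaf1, whose interval ran from −1.17 to 0.23. The members were bright, with median intensities of 1058 and 1062 in the null mice and 1022 and 1033 in the control mice. Medians of whole arrays were 43.2 to 53.3. Standard errors were fitted with an intensity trend, and the shares above were not matched for brightness. In whole tissue, fewer cells of a type and less RNA per cell cannot be told apart.

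**Figure D1:**
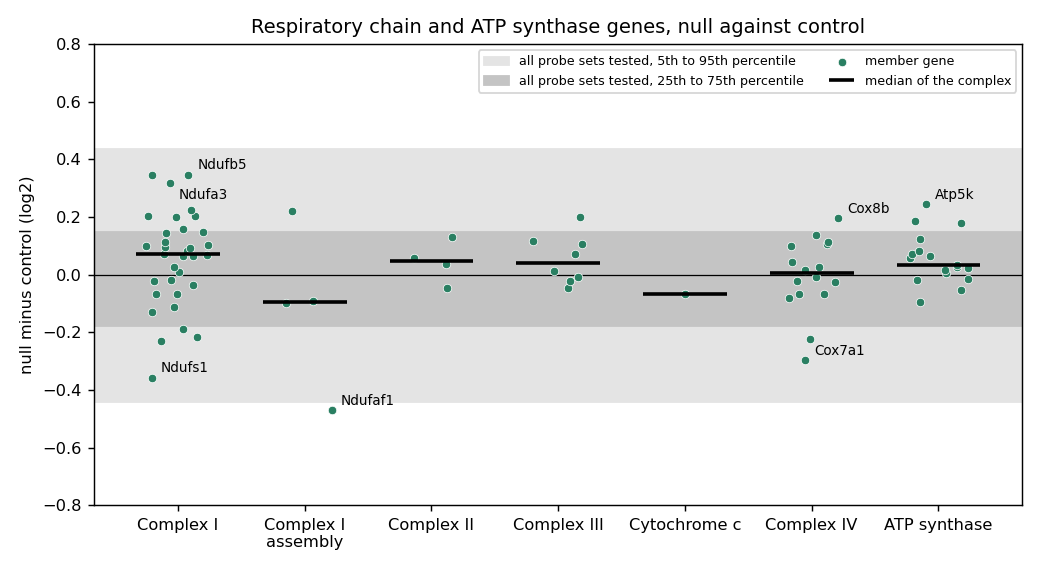
Null minus control difference (log2) of each member gene that passed the filter on dim probe sets, by complex; bars are medians, and the grey bands hold the middle 50% and the 5th to 95th percentile (−0.44 to 0.44) of all probe sets tested. Apart from Ndufaf1 at −0.47, every member lies within the wider band.

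Arrays and tissue were described by a few whole-series values. The median deposited intensity was 43.2 and 53.3 for the null mice and 50.2 and 49.5 in the control mice, and correlations between normalized arrays were 0.927 for the null pair, 0.963 for the control pair and 0.941 to 0.96 across groups, with the male null in the 3 lowest. The brightest Hnf4a probe set read 1136 and 1025 in the null mice, against 1141 and 731 in the control mice, and Hnf4g read 327 and 445 in the null mice against 404 and 310 in the control mice, so neither checks the null labels. Enterocyte markers were strong, with summed intensities over 5 genes of 18967 and 17173 in the null mice and 19207 and 19551 in the control mice, and 4 of the 5 were lower in both sexes. Summed goblet cell markers, all 5 higher in the null mice, were 15896 and 14678 against 11399 and 11742 in the control mice. Smooth muscle markers summed to 2488 in the male null and 3319 in the female null, against 2584 in the female control and 2604 in the male control. All 5 T cell markers tested were lower in both sexes, with sums of 798 and 616 in the null mice and 1110 and 1020 in the control mice. Paneth cell markers summed to 14539 and 14247 in the null mice and 18344 and 19126 in the control mice, with 2 of the 4 genes higher and 2 lower. Among them Pla2g2a read 292 and 550 in the null mice against 4907 and 5767 in the control mice, so that this gene alone set the lower sum. Pla2g2a passed in limma (adjusted p = 0.0277). Mmp7 read 1383 and 1180 in the null mice against 459 and 659 in the control mice. Summed B cell markers were 383 and 590 in the null mice and 676 and 209 in the control mice. Of the brown fat markers none passed the dim filter, and Ucp1 read 29.1 and 0.154 in the null mice and 11.9 and 8.65 in the control mice. Of 10 skeletal and heart muscle genes 5 were tested, 3 higher and 2 lower, with sums of 379.6 and 415 in the null mice and 374 and 350.3 in the control mice. Among these Acta1 read 143 and 157 in the null mice against 118 and 88.6 in the control mice, and Myh7 read 13.5 and 42.0 against 48.3 and 53.7, while Tnnc2, which was not tested, read 3.35 and −27.6 in the null mice and −11.8 and 4.43 in the control mice.

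The members leaned slightly upward in the null mice on these arrays. Of the 83 genes, 52 had a difference above 0 and 31 (37.3%) below, where 52.2% of all probe sets tested were lower. Over the brightest probe set of each of 9546 genes tested, as used for the members, 49.7% were lower and the median was 0.0014. Both null arrays lay above both controls for 27 genes (32.5%), against 13.5% of all probe sets, and below both for 7 genes (8.43%), against 16.3%. Over the brightest probe sets of all genes the shares were 14.4% above and 15.2% below. Whether groups overlap is judged throughout after normalization. The distance between the nearest null and control array was narrow, at a median of 0.046 on the log2 scale for the 27 and 0.11 for the 7. With the deposited values left unscaled, 41 of the 83 genes were lower and their median was 0.012, against −0.052 over all probe sets tested. The 2 sex pairs differed in this measure, which was not tested. Each pair had its own control genotype, so sex cannot be told apart here from the control genotype or from the single animals. Between the males, the null minus control median was 0.00 and 41 of 83 genes were lower, where 53.8% of all probe sets were lower. Between the females, the null minus control median was 0.095 and 23 of 83 were lower, against 49.2% of all probe sets. The smooth muscle list, 7 of 8 members higher over the 4 arrays, had a median of −0.23 between the males and of 0.68 between the females, and its part in the result was not tested. Signs agreed across the pairs as higher for 31 members, against 22.6% of all probe sets, and as lower for 12 (14.5%), against 25.7%.

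**Figure D2:**
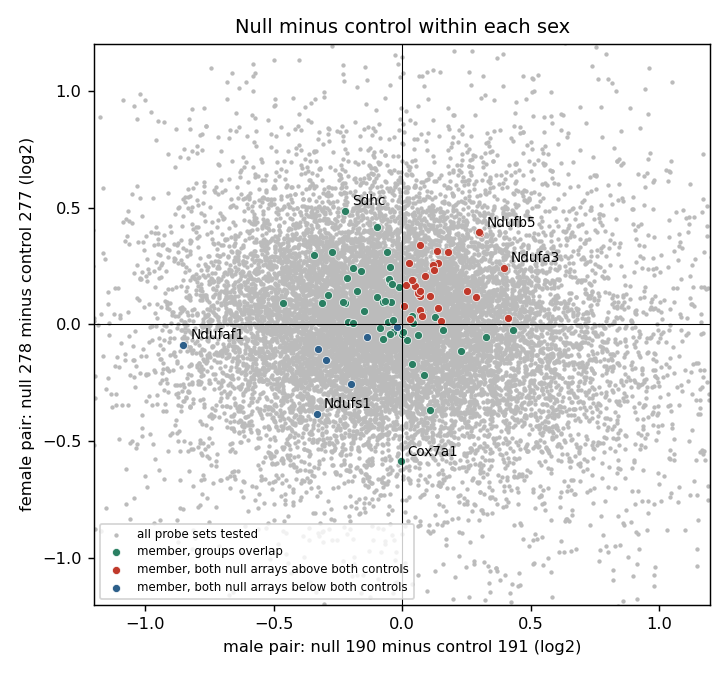
Null minus control (log2) in the male pair (x axis) and in the female pair (y axis) for members and for all probe sets tested (grey, of which 380 lie outside the axes at 1.2). The 27 members in red have both null arrays above both controls and the 7 in blue have both below, while those in green overlap; Ndufs1 and Ndufb5 lie away from 0 on both axes, Ndufaf1 mainly on the male axis and Cox7a1 only on the female axis.

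Complex I, NADH dehydrogenase, had 33 genes, all tested, of which 0 passed in limma, 22 were higher and 11 lower, with a median of 0.070. Both null arrays stood above both controls for 15 of them (45.5%), against 13.5% of all probe sets tested, and below for 4 (12.1%), against 16.3%. Among its core subunits, which hold the redox centres, Ndufs1, the largest iron-sulfur protein of the complex, was the lowest. Ndufs1 read 254.5 and 254.3 in the null mice, against 335 and 348 in the control mice. The null arrays were nearly equal and lay below both controls, at a log2 difference of −0.36 (SE 0.18, 95% interval −0.80 to 0.085, unadjusted p = 0.0967, adjusted p = 1 in limma), with −0.33 in the male and −0.38 in the female pair. Ndufv1, which binds NADH and flavin, read 828 and 878 in the null mice and 786 and 782 in the control mice, a difference of 0.15 (SE 0.14). Of the remaining core subunits, Ndufs7 differed by 0.20, Ndufs8 by 0.11, Ndufs3 by 0.099 and Ndufv2 by −0.066. Both null arrays lay above both controls for Ndufv1, Ndufs7, Ndufs8 and Ndufs3, and in Ndufv2 the groups overlapped.

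Accessory subunits of complex I surround the core and help to assemble and hold it. Ndufa3 had the smallest p of all members. It read 1348 and 1201 in the null mice against 1033 in each control, and both null arrays were higher, by 0.32 (SE 0.13, 95% interval 0.0037 to 0.63, unadjusted p = 0.048, adjusted p = 1 in limma). Its other probe set gave 0.32 too. Ndufb5 read 1966 and 1605 in the null mice against 1266 and 1610 in the control mice. As deposited the groups thus overlapped, by a few units between the female null and the male control, and after normalization they were apart, by 0.35 (SE 0.16). The other Ndufb5 probe set gave −0.022, so the gene is uncertain. Ndufb1 read 61.7 and 96.4 in the null mice and 66.6 and 53.7 in the control mice, and differed by 0.35 (SE 0.24, 95% interval −0.23 to 0.92). On the low side, Ndufab1, the mitochondrial acyl carrier protein, read 703 and 666 in the null mice and 818 and 842 in the control mice. Both null arrays were lower, by −0.23 (SE 0.15), and its other tested probe set gave −0.38. Ndufb6 was likewise lower on both null arrays, at 614 and 725 against 801 and 791 in the control mice, a difference of −0.22 (SE 0.15), with −0.34 on its other probe set. The remaining 22 accessory subunits differed by −0.19 to 0.22, a range set by Ndufa6 and Ndufc2.

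Assembly factors that carry the Nduf prefix are not part of the finished complex, and 4 of 5 were tested. Ndufaf1, which builds an early membrane intermediate of complex I, had the largest difference of all members on their brightest probe sets. It read 28.9 and 69.5 in the null mice and 71.2 and 73.8 in the control mice, at −0.47 (SE 0.29, adjusted p = 1 in limma). The male null alone set that size, as the male pair differed by −0.85 and the female pair by −0.086. Ndufaf3 and Ndufaf4 differed by −0.099 and −0.093, and Ndufaf7 by 0.22. Ndufaf5 fell under the filter, at 11.5 and 37.0 in the null mice and 26.2 and 24.6 in the control mice.

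Complex II, succinate dehydrogenase, also belongs to the TCA cycle. On their brightest probe sets its 4 genes stayed within 0.13 of 0, with a median of 0.047. The flavoprotein Sdha read 883 and 860 in the null mice and 904 and 935 in the control mice, at −0.045 (SE 0.14), with groups that were apart as deposited and overlapped after normalization. The iron-sulfur subunit Sdhb read 2173 and 1966 in the null mice and 2029 and 2119 in the control mice, and the groups overlapped at a difference of 0.037 (SE 0.11, 95% interval −0.22 to 0.29). The membrane anchors Sdhc and Sdhd differed by 0.13 (SE 0.21) and 0.057 (SE 0.13). Sdhc read 547 and 687 in the null mice and 500 and 649 in the control mice, with −0.22 in the male and 0.49 in the female pair. Other tested probe sets gave 0.019 for Sdha, −0.15 for Sdhc and −0.52 for Sdhd, the last of them dim.

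Complex III, cytochrome bc1, had 8 genes tested and a median of 0.041, with 5 higher and 3 lower. The Rieske iron-sulfur protein Uqcrfs1 read 1138 and 1256 in the null mice and 1292 and 1206 in the control mice, a difference of −0.023 (SE 0.14). The core proteins Uqcrc1 and Uqcrc2 differed by 0.071 (SE 0.13) and −0.046 (SE 0.13), with overlapping groups in both. The small subunit Uqcr10 was the highest, at 1261 and 1025 in the null mice against 956 and 1034 in the control mice, a difference of 0.20 (SE 0.15), and the hinge protein Uqcrh differed by 0.12 (SE 0.12). For Uqcrb the null mice read 4152 and 3868 and the control mice 3654 and 3888, at 0.11 (SE 0.090), the smallest standard error of all members. Somatic cytochrome c, Cycs, read 1217 and 1468 in the null mice and 1393 and 1456 in the control mice. Its groups overlapped, at −0.066 (SE 0.14), and the value was 0.074 without the male null. The other 2 Cycs probe sets gave 0.15 and −0.18.

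**Figure D3:**
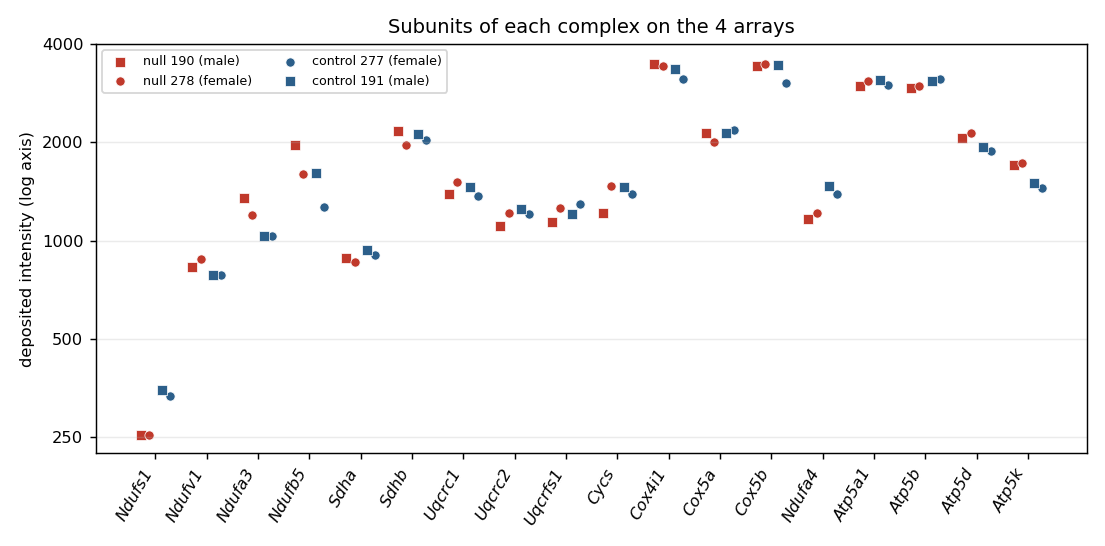
Deposited intensity (log axis) on each array for 18 subunits, null animals in red at the left of each pair and controls in blue at the right, squares for males and circles for females. Ndufs1 and Ndufa4 sit lower and Ndufa3 and Atp5k higher on both null arrays, by no more than 0.36 on the log2 scale, and most of the others overlap or lie close.

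Complex IV, cytochrome c oxidase, had 16 of 17 genes tested, 8 higher and 8 lower, with a median of 0.0052. Of the widely expressed subunits, Cox4i1, an early building block of the complex, read 3481 and 3435 in the null mice and 3121 and 3347 in the control mice, a difference of 0.11 (SE 0.094, 95% interval −0.11 to 0.34). Cox5a and Cox5b, on the matrix side, differed by −0.022 (SE 0.10) and 0.10 (SE 0.11). Ndufa4 carries a complex I name but is a subunit of complex IV. It read 1167 and 1214 in the null mice against 1384 and 1465 in the control mice, so both null arrays were lower, by −0.22 (SE 0.13, adjusted p = 1 in limma), with −0.30 in the male and −0.15 in the female pair. Both Cox7c probe sets fell under the filter, and the brighter read 2.91 and 17.2 in the null mice and 23.4 and 25.7 in the control mice; neither group is known to exceed background.

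Several complex IV subunits come in a widely expressed or liver form and a form restricted to muscle, lung or testis. Cox6a1, the liver form, read 3603 and 3078 in the null mice and 3336 and 3656 in the control mice, at −0.068 (SE 0.10). Its muscle partner Cox6a2 read 45.7 and 35.0 in the null mice and 40.2 and 48.5 in the control mice, at −0.067 (SE 0.27). Both overlapped between groups, and the dim probe set of Cox6a2 lies near the filter, whose lowest mean corresponded to an intensity of 26.2. In the next family, Cox7a2, the liver form, differed by 0.026 (SE 0.10), and Cox7a2l, which joins complexes III and IV into supercomplexes, by 0.11 (SE 0.13), with 0.12 and 0.13 on its other probe sets. Cox7a1, the form of heart and skeletal muscle, read 572 and 338 in the null mice and 516 and 579 in the control mice. Only the female null was low, and the difference of −0.30 (SE 0.27) became 0.094 without that animal, with −0.0066 in the male and −0.59 in the female pair. Smooth muscle markers ran the other way in that female pair (median 0.68), while the 5 skeletal and heart muscle genes tested had a median of 0.0097 there. The part of either list in the result was not tested. Cox8a, the liver form, differed by −0.081 (SE 0.17) and its muscle partner Cox8b by 0.20 (SE 0.23), with Cox8b at 43.0 and 47.9 in the null mice and 39.1 and 39.0 in the control mice. Cox4i2, the lung form, differed by 0.018 (SE 0.25) and Cox6b1, the widely expressed form, by 0.043 (SE 0.093). The testis forms Cox6b2 and Cox8c differed by −0.024 (SE 0.28) and 0.14 (SE 0.22). Cox8c read 153 and 136 in the null mice and 136 and 131 in the control mice.

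**Figure D4:**
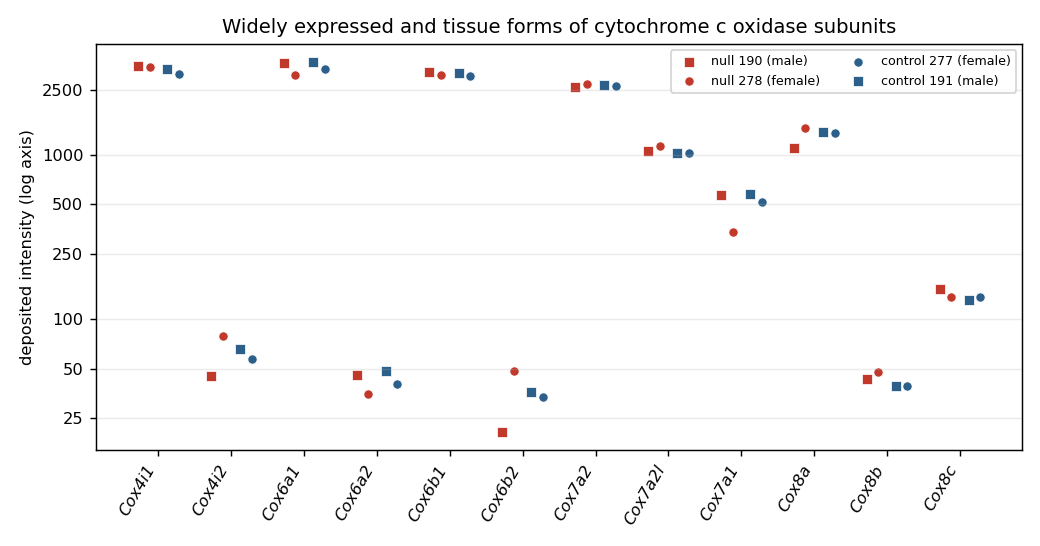
Deposited intensity (log axis) on each array for widely expressed and tissue forms of complex IV subunits, null animals in red at the left and controls in blue at the right, squares for males and circles for females. Null and control values overlap or lie close for the forms shown, and the female null is apart from the other 3 arrays for Cox7a1 at 338.

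ATP synthase had 17 genes, all tested, of which 13 were higher and 4 lower, with a median of 0.034, and for 16 of them the 95% interval lay within 0.5. The catalytic head, F1, is built around the alpha and beta subunits. Atp5a1 (alpha) read 2975 and 3091 in the null mice and 2994 and 3094 in the control mice, at 0.017 (SE 0.099), and Atp5b (beta) read 2929 and 2982 in the null mice and 3117 and 3079 in the control mice, at −0.052 (SE 0.096, 95% interval −0.28 to 0.18). The groups overlapped in both after normalization. Atp5d (delta) was higher on both null arrays, at 2063 and 2130 against 1882 and 1930 in the control mice, a difference of 0.19 (SE 0.11). The 3 genes Atp5g1, Atp5g2 and Atp5g3 encode the c subunit of the membrane rotor and differ in the presequence that is cut off. They differed by 0.081 (SE 0.15), 0.025 (SE 0.15) and −0.096 (SE 0.094). For Atp5g3 both null arrays lay below both controls after normalization, at 3501 and 3214 against 3485 and 3753 as deposited. Of the stalk and membrane subunits, Atp5k (e), which helps ATP synthase to form dimers, was the highest. Atp5k read 1705 and 1726 in the null mice against 1454 and 1500 in the control mice, so that both null arrays were higher, by 0.24 (SE 0.12, 95% interval −0.037 to 0.53, adjusted p = 1 in limma). Its other probe sets gave 0.20 and 0.045. The remaining 8 subunits of this class lay between −0.017 (Atp5o) and 0.18 (Atp5h).

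Where a gene had several probe sets, they give a second reading of the same arrays. Of the 43 genes with several tested, 27 had differences of 1 sign and 16 of both signs, with a median spread of 0.11. The genes of both signs in complex I were Ndufb5, Ndufs4 (−0.42 to 0.025), Ndufa5 (−0.19 to 0.066), Ndufa12 (−0.022 to 0.062) and Ndufb9 (−0.011 to 0.070). Those elsewhere were Sdha (−0.045 to 0.019), Sdhc (−0.15 to 0.13), Sdhd (−0.52 to 0.057), Uqcrc2 (−0.046 to 0.14), Cycs, Cox5a (−0.022 to 0.21), Cox6a1 (−0.068 to 0.0039), Cox8a (−0.081 to 0.054), Atp5a1 (−0.35 to 0.023), Atp5j2 (−0.011 to 0.066) and Atp5o (−0.017 to 0.025). The widest spread, 0.58 for Sdhd, came from a probe set that read 15.3 and 39.0 in the null mice and 43.2 and 48.1 in the control mice, while the brighter one read 1058 and 1034 in the null mice and 1013 and 1023 in the control mice.

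Promoters of these genes are known for sites of NRF1 and of ETS factors such as GABP, general regulators of nuclear genes for mitochondria, and sequences from RefSeq (GRCm38.p6) were searched for their letters and for those of HNF4. Of the 85 genes 71 had an entry, each a window of 250 bases before and 50 after the start, and both strands were searched. The NRF1 letters GCGCATG were in 15 of 71 members (21.1%), against 4.41% of 27025 genes, and the ETS letters CCGGAAG in 18 (25.4%), against 9.93%. The letters AAGTCCA, which occur in HNF4 sites, were in 1 member, Atp5c1 (1.41%), against 4.70%. Such matches describe these windows and are not shown to be bound. Members with the NRF1 letters had a median difference of 0.026 over 14 tested genes, from −0.22 to 0.24, and those without one of 0.057 over 55. For the ETS letters the medians were 0.032 over 18 genes with them and 0.064 over 51 without. Atp5c1, with the HNF4 letters, differed by 0.073 on its brightest probe set and by 0.49 on its other tested one. Members without these letters had a median of 0.035 over 68 genes. The stretches of 180 bases before the start are shown for a carrier, a complex IV subunit, an ATP synthase subunit and a complex II subunit with the NRF1 letters, and for Cox8b, a muscle form with none of the motifs in this stretch. Capitals mark NRF1 and ETS letters; in Cox6a1 and Atp5k the NRF1 letters of both strands overlap.
Cycs (chr6:50566570-50566749, minus strand): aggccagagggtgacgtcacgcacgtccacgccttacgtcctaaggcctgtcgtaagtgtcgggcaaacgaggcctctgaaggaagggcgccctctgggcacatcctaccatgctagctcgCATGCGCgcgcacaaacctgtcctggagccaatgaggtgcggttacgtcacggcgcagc
Cox6a1 (chr5:115348959-115349138, minus strand): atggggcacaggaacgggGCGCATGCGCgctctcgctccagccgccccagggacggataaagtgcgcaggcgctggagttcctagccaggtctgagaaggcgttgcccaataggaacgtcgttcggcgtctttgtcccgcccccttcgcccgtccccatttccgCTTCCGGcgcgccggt
Atp5k (chr5:108434400-108434579, minus strand): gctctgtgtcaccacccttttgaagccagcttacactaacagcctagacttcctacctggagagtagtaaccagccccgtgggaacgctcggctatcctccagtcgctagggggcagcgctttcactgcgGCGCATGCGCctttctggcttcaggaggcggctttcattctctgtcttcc
Sdhb (chr4:140961091-140961270, plus strand): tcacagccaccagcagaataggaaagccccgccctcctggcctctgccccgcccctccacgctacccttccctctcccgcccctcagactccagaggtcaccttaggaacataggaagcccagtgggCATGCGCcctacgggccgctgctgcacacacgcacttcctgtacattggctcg
Cox8b (chr7:140900447-140900626, minus strand): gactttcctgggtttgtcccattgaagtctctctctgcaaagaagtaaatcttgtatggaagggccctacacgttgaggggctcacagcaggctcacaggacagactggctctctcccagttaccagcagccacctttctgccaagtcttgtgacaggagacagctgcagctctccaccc
Atp5k, with 2 overlapping matches, differed by 0.24, Sdhb by 0.037, Cox6a1 by −0.068, Cycs by −0.066 and Cox8b by 0.20, all with an adjusted p of 1 in limma.

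Other genes of mitochondria were given for comparison, from lists by role, and 0 members of any of them passed in limma. Factors that assemble complexes II to V had a median of −0.11 over 27 genes, 16 lower. The smallest p were those of the complex III factor Ttc19 at −0.57 (SE 0.27) and the copper chaperone Cox17 at 0.26 (SE 0.15). Ttc19 was dim, at 14.6 and 33.7 in the null mice and 42.4 and 45.9 in the control mice. Further complex I assembly factors had a median of −0.14 over 5 genes, 4 lower, with Foxred1 at −0.35 and Tmem186 at 0.22. Both were dim, at intensities of 32.9 to 55.0 over the 4 arrays. Electron entry outside complexes I and II, with ubiquinone synthesis and cytochrome c1, had a median of −0.18 over 15 genes, 12 of them lower and 8 lower in both pairs. Etfdh, which passes electrons from fatty acid oxidation to ubiquinone, read 312 and 386 in the null mice against 479 and 451 in the control mice, at −0.36 (SE 0.17, adjusted p = 1 in limma). In the same list Sqor, a sulfide oxidase, stood at 0.88 (SE 0.48), with the male null at 313 and the female null at 112, against 79.8 and 117 in the control mice. Cytochrome c1 itself, Cyc1, differed by −0.065 (SE 0.11). The TCA cycle list had a median of −0.080 over 16 genes, 11 lower, with Idh3a at −0.31 and Suclg2 at −0.31. The mitochondrial ribosome had one of −0.062 over 74 genes, 48 lower and 26 lower in both pairs, with Mrpl33 at −0.45 (SE 0.19) and Mrps18a at 0.58 (SE 0.27). The cytosolic ribosome stood at −0.0041 over 46 genes, with Rpl39 at −0.22 and Rps4x at −0.16. Regulators of mitochondrial transcription and biogenesis had a median of −0.058 over 15 genes, with Polg2 at −0.45 and Tfb1m at 0.44. Tfb1m was dim, at 37.9 and 51.8 in the null mice and 29.7 and 29.6 in the control mice. The list of ADP and phosphate carriers and outer membrane pores stood at 0.0051 over 9 genes. It also held the creatine kinase Ckmt1, at −0.13, and the uncoupling protein Ucp3, at 0.35. Ucp3 was dim, at 36.4 and 33.8 in the null mice and 17.2 and 34.5 in the control mice. Differences between these lists and the respiratory chain were not tested.

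**Figure D5:**
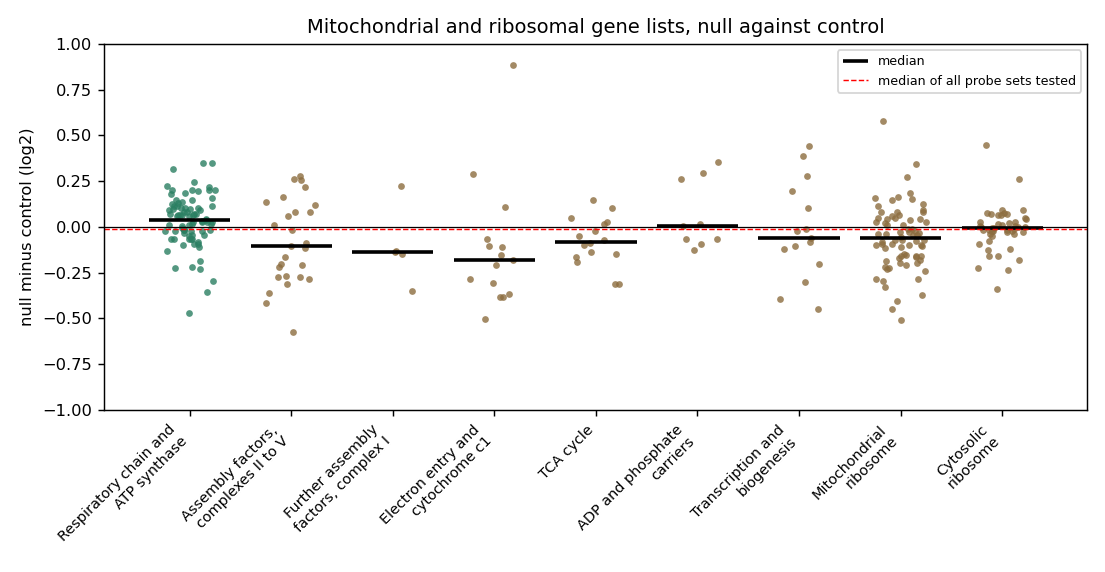
Null minus control difference (log2) of each tested gene by list; black bars are list medians and the red dashed line is the median of all probe sets tested (−0.012). The respiratory chain and ATP synthase genes have a median of 0.037, and electron entry the lowest median shown, −0.18.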

How the data were processed

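Biotin-labelled material from total RNA of each mouse went on 1 Affymetrix array, per the labels' protocols. The deposited table holds 1 linear intensity per probe set and array, and how it was summarised, background-corrected and scaled is not given in the sources used here. Values below 0 made up 1.42% to 2.46% of each array. Because medians of log2(intensity + 16) spread over 0.23, more than the limit of 0.2, the deposited intensities were quantile normalized over 22626 probe sets without the 64 controls, floored at 0 and logged (log2) with a pseudocount of 16. The dimmest 30% by mean were left out, and null was compared with control by limma 3.58.1 in R 4.3.3 (lmFit, eBayes with an intensity trend, two-sided, no covariates), with Benjamini-Hochberg adjustment over 15838 probe sets and a cutoff of 0.05. Residual degrees of freedom were 2, and the script was tested on simulated data. Moderated standard errors gave the 95% intervals. Detection calls were not used here, and the number of arrays limits the precision. Differences on this scale understate those of dim probe sets. Symbols came from the platform annotation, all 85 unchanged in a gene table of GRCm38.p6. Named genes were those past the threshold, the 2 highest and 2 lowest of each complex with 1 sign in both sexes, core subunits, isoform families, genes whose probe sets had both signs, and the 2 smallest p of each other list. Alternatives changed the scaling, pseudocount, filter, sex block, prior trend, probe set and arrays used. The members and lists were chosen with earlier results of these data known. Further genes named in the text, among them Ndufa3, Ndufb6, Ndufa6, Ndufc2, the other core and Ndufaf genes, Uqcrb, Atp5h, Cyc1, ND5, Atpif1 and Dmac2l, were chosen after their values were seen.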

Additional observations from a re-analysis of the deposited data

Results flagged for a closer look

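Among the medians of the complexes and the members named by rule, 24 values had differences of opposite sign in the male and the female pair. Members outside that rule are not listed here. With 1 null and 1 control animal of each sex, the difference between the pairs was not tested. The male and the female control also differed in genotype, so sex and control genotype cannot be told apart. Among the complexes, the median difference (log2) was 0.047 for complex II, with −0.0044 in the male and 0.036 in the female pair, and 0.041 for complex III, with −0.044 and 0.11. It was 0.0052 for complex IV, with −0.025 and 0.11, and 0.034 for ATP synthase, with −0.013 and 0.14. Cytochrome c, whose only gene is Cycs, stood at −0.066, with −0.23 and 0.097.

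Of the 19 named genes among these, 16 were lower in the male null animal and higher in the female one. The ATP synthase genes were Atp5a1 at 0.017 over the 4 arrays, Atp5g2 at 0.025, Atp5j2 at 0.066 and Atp5o at −0.017. Those of complex IV were Cox4i2 at 0.018, Cox5b at 0.10, Cox6b2 at −0.024, Cox7a2 at 0.026 and Cox8a at −0.081. The others, beside Cycs at −0.066, were Ndufa5 at 0.066, Ndufb9 at 0.070, Sdhc at 0.13, Uqcrc1 at 0.071, Uqcrc2 at −0.046 and Uqcrfs1 at −0.023. The opposite order was found for Cox6a2 at −0.067, Cox8c at 0.14 and Ndufa12 at −0.022. The widest gap between the pairs among these genes was that of Sdhc, at −0.22 in the male and 0.49 in the female pair.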

How the results depend on the processing

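No member passed an adjusted p of 0.05 in limma under any of the 12 alternatives. Over all probe sets, 29 passed with sex as a block and 1 without the prior trend, and 0 to 29 when 1 array was left out, with 29 without the male null and 0 without either control. Leaving out 1 array moved the median of all members between 0.016 and 0.074, of complex II between −0.026 and 0.058, of complex III between 0.020 and 0.13, of complex IV between −0.031 and 0.091 and of ATP synthase between 0.016 and 0.10. The complex I median was 0.10 with median scaling, and that of complex II was −0.011 with the mean of all probe sets of a gene. Without normalization, the sign turned for Atp5a1 (−0.0052), Atp5g2 (−0.0045), Cox4i2 (−0.023), Cox7a2 (−0.00095), Ndufs4 (−0.016) and Sdhb (−0.0041), and with median scaling for Ndufa12 (0.010). With 1 array left out, the lone animal of a group is assumed to vary like the other group, and further signs turned. The ranges were −0.048 to 0.081 for Atp5a1, −0.019 to 0.18 for Atp5g1, −0.093 to 0.14 for Atp5g2, −0.0023 to 0.13 for Atp5j2, −0.11 to 0.074 for Atp5o and −0.19 to 0.22 for Cox4i2. They were −0.14 to 0.0057 for Cox6a1, −0.32 to 0.18 for Cox6a2, −0.31 to 0.26 for Cox6b2, −0.69 to 0.094 for Cox7a1, −0.040 to 0.091 for Cox7a2, −0.29 to 0.12 for Cox8a and −0.041 to 0.31 for Cox8c. For Cycs the range was −0.21 to 0.074, for Ndufa12 −0.083 to 0.038, for Ndufa5 −0.037 to 0.17, for Ndufb9 −0.017 to 0.16, for Ndufs4 −0.038 to 0.088, for Sdhc −0.066 to 0.33, for Uqcrc1 −0.012 to 0.15, for Uqcrc2 −0.12 to 0.033 and for Uqcrfs1 −0.11 to 0.066. The cause was not tested. Of 43 named members, 20 kept their sign under the alternatives run for single genes, each on its brightest probe set. The mean of all probe sets was run for the medians only. Among the 20, Ndufb5, Sdha, Sdhd and Cox5a had tested probe sets of both signs. The groups share no animal numbers, so the pairing run was by sex, as the block above. With 2 animals a group and no detection calls used, small differences and dim probe sets such as Cox7c and Cox6b2 are the least certain.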

Other observations

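A few genes next to the respiratory chain, chosen after their values were seen, did not pass in limma either. ND5, a complex I subunit encoded in mitochondrial DNA, read 3886 and 3950 in the null mice and 4231 and 4471 in the control mice, at −0.13 on the log2 scale (SE 0.095). Atpif1, the inhibitor of ATP synthase, read 1241 and 1129 in the null mice and 1217 and 1411 in the control mice, at −0.13. Dmac2l, a factor linked to ATP synthase, read 36.5 and 57.0 in the null mice and 58.5 and 61.7 in the control mice, at −0.26 (SE 0.23).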
